A study of Mus musculus with 13 samples.

Results

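Cytosolic sensing of viral and misplaced nucleic acids was described through 9 genes in microglia, the resident macrophages of the brain. They were Ddx58, Ifih1, Dhx58, Mavs, Rnf166, Traf3, Tbk1, Irf3 and Tmem173, taken by symbol from a table of 14518 genes, and all 9 were found and passed the filter on low reads. Mavs was selected on its own normalized reads, which did not overlap between stressed and control samples, and Rnf166 was known from the same comparison as one of the genes of smallest p. That comparison is therefore given for all 9 genes as a description, with no test. The cells came from C57BL/6 mice aged 2 months and were isolated by a Percoll gradient and flow sorting on CD11b with an intermediate level of CD45. One group (RSD, n = 7) had undergone 6 cycles of repeated social defeat, in which a mouse is exposed to an aggressor, and the other (CON, n = 6) served as controls. The interval between the final cycle and RNA collection was 24 days. The labels name no genotype, sex or further treatment, and do not say whether a sample was 1 mouse or a pool, so tests measure the spread between samples.

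In this pathway the helicases RIG-I (Ddx58) and MDA5 (Ifih1) bind double-stranded RNA in the cytoplasm, and LGP2 (Dhx58), which lacks signalling domains, modulates them. Both pass the signal to MAVS, an adaptor anchored in the mitochondrial outer membrane, which recruits TRAF proteins and the kinase TBK1. TBK1 phosphorylates IRF3, which then switches on interferon beta, and STING (Tmem173) feeds the same kinase after DNA is sensed by cGAS. Secreted interferon raises the sensor genes in turn, through the interferon-stimulated response element (ISRE) in their promoters.

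The letters of that element were found in the promoters of both sensor helicases and not in that of Mavs. RefSeq promoters of build GRCm38.p6, running from 250 bases before to 50 bases after the annotated start, were found for 7 of the 9 genes. The ISRE was searched on both strands as GAAA, 2 bases of any kind and GAAA, and stood in those of Ddx58 and Ifih1 and not in those of Mavs, Tbk1, Irf3, Traf3 and Rnf166. The same letters are in 3.44% of all 32851 promoters of this length. The 3 sequences below show the sensors that carry the element beside the adaptor that does not, on the strand of each gene. Capitals mark the ISRE letters, which are at bases 253 to 262 for Ddx58 (on the reverse strand) and 283 to 292 for Ifih1. The windows are chr4:40239776-40240075 (minus strand), chr2:62646206-62646505 (minus strand) and chr2:131233813-131234112 (plus strand).
Ddx58: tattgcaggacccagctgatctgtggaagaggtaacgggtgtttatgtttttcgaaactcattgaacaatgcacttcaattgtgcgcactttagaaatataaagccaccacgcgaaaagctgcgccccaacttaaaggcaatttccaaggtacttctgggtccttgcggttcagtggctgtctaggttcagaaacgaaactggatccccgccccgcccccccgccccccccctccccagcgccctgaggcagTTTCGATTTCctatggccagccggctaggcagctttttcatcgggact
Ifih1: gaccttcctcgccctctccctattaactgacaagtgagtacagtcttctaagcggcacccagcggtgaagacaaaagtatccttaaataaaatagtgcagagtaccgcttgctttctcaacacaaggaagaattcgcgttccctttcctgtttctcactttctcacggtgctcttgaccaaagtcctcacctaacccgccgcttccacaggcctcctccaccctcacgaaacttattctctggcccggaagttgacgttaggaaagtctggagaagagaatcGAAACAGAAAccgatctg
Mavs: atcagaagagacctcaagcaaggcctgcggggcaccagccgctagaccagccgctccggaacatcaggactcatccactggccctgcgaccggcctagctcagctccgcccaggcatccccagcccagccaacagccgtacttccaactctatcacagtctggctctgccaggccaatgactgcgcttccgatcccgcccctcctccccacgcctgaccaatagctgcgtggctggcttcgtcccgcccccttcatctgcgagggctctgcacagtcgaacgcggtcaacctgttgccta
The Traf3 promoter held GAGGAAGT, a binding sequence of the myeloid factor PU.1, which 3.20% of all promoters hold. A match is a run of letters and not a measured binding site.

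Depth was 9.76 to 12.3 M reads a library, and the 9 genes had between 135 and 4197 reads each in a library. Values are normalized reads, that is, reads divided by a size factor of the library. The 10 microglial markers summed to 305624 to 324844 normalized reads in 12 libraries and to 201252 in CON 18. The 10 markers of border and blood-derived macrophages present in the table summed to 1899 to 3007 in the same 12 libraries and to 148873 in CON 18. RSD 8 also stood apart, with a Spearman rho against each other library whose median was 0.975, where CON 18 had 0.948 and the rest had 0.988 to 0.992. Libraries further differed in how a gene's deviation followed the GC content of its transcript. The Spearman rho of that relation over 10172 genes was -0.66 in RSD 2 and -0.79 in RSD 8, and between -0.10 and 0.47 in the rest. Results are given below with and without CON 18 and RSD 8, and within sample numbers 1 to 8 (RSD 2, 7, 8 and CON 1, 4, 5) and 10 to 19 (RSD 10 to 13 and CON 17 to 19), since the number is the only other label. In bulk samples, fewer cells of a type and less RNA per cell cannot be told apart.

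Compared per kilobase of annotated exon, the STING gene and the kinase stood above the RNA sensors. Tmem173 had the highest level of the 9, at 1302 ± 128 normalized reads per kb (SD, n = 13), followed by Tbk1 at 355 ± 37.2. Rnf166 (216 ± 24.6) and Mavs (178 ± 22.3) came next and kept that order in 13 of 13 libraries. Irf3 was at 131 ± 14.99 per kb and Traf3 at 104 ± 9.88. The RNA sensors stood lowest, with Ddx58 at 98.7 ± 9.09, Ifih1 at 85.8 ± 13.3 and Dhx58 at 61.6 ± 15.1 per kb. Traf3 and Ddx58, which were in that order in 9 of 13 libraries, differed by less than the SD of either. Ddx58 and Ifih1, in that order in 12 of 13, differed by more than the SD of Ddx58 and less than that of Ifih1. Exon length joins all annotated exons of a gene, 8165 bases for Ifih1, 7050 for Ddx58 and 3345 for Mavs, and the order depends on it. Before that division Ifih1 (mean 700) and Ddx58 (696) had more normalized reads than Mavs (594), and Dhx58 (202) had the fewest.

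**Figure D1:**
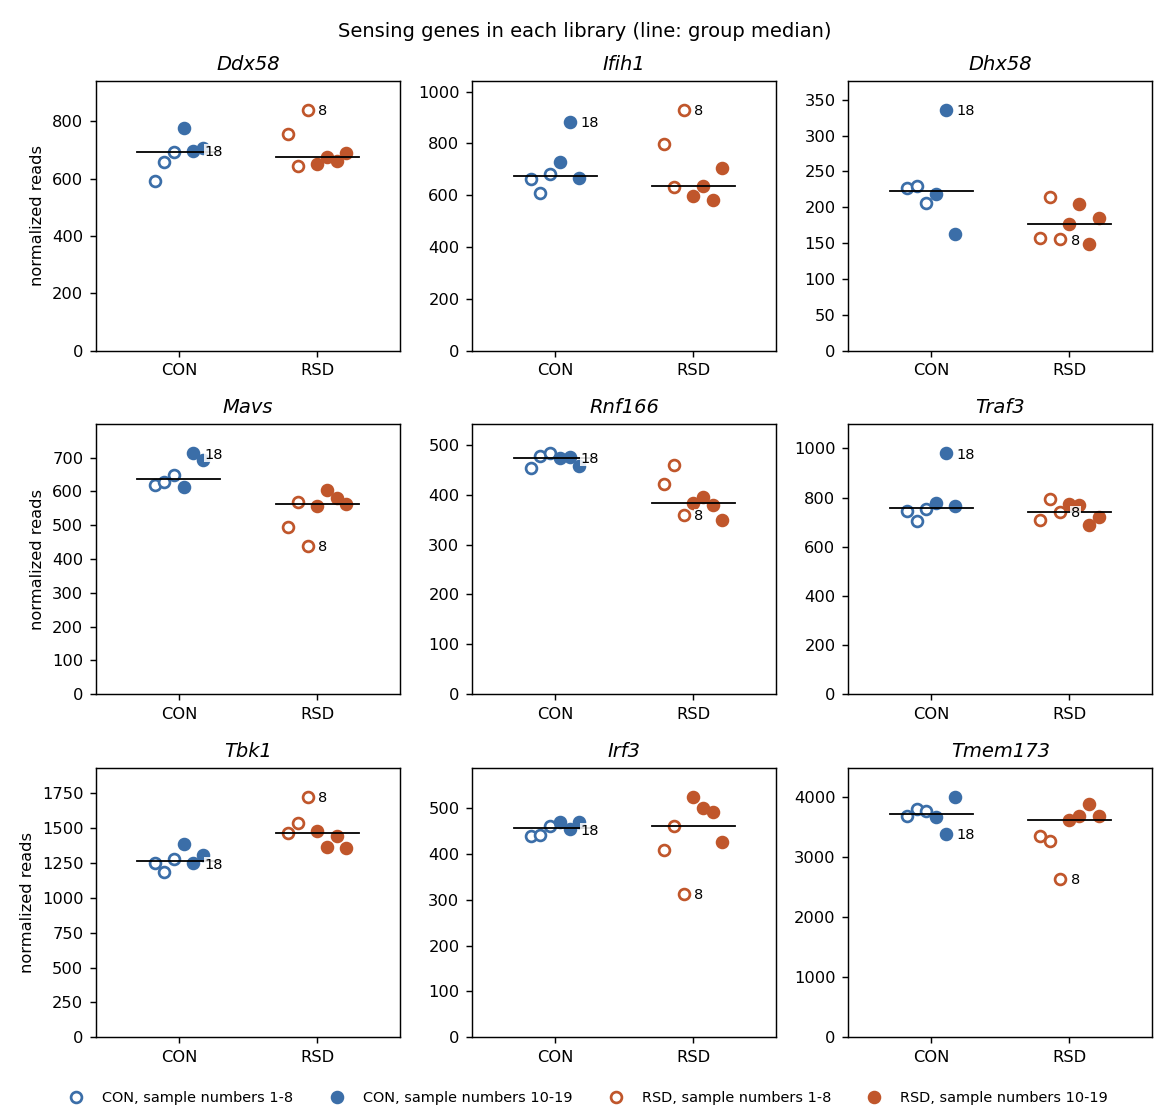
Normalized reads (y axis, from 0) of the 9 genes in each CON and RSD library (points; open for sample numbers 1 to 8, filled for 10 to 19), with the group median as a line and CON 18 and RSD 8 labelled by number. In the Mavs panel every RSD point (438 to 604) lies below every CON point (613 to 713), while the sensor panels overlap.

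The RNA sensors overlapped between the groups. Ddx58, which encodes RIG-I, had a lowest, median and highest value of 646, 675 and 839.6 normalized reads in RSD and of 592, 695 and 778 in CON. RSD 8 lay above every control, and the other 6 stressed libraries, with RSD 2 (754) the highest of them, lay within the control range. The log2 difference, RSD minus CON, was 0.03 ± 0.08 (SE). Fold changes throughout are differences of log2(value + 1).

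Ifih1, which encodes MDA5, ran from 582 over 635 to 929 normalized reads in RSD and from 609 over 674 to 883 in CON. The highest of the RSD libraries were again RSD 8 and RSD 2 (796), and the highest control was CON 18. The log2 difference was -0.03 ± 0.11. The sign of both sensors changed with the libraries used. Within sample numbers 1 to 8 the differences were 0.20 for Ddx58 and 0.26 for Ifih1, and within numbers 10 to 19 they were -0.12 and -0.27.

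That change was tested with an interaction of group and number range, fitted on the whole table with limma, where 0 of 12496 genes (0.0%) passed at an adjusted p of 0.05 and 2708 (21.7%) had an unadjusted p below 0.05. For Ifih1 the interaction was -0.52 ± 0.19 (limma adjusted p = 0.172) and for Ddx58 -0.32 ± 0.14 (limma adjusted p = 0.219). Without RSD 7, Ifih1 passed (-0.67, limma adjusted p = 0.0293), in a fit that called 1457 genes (11.7%). That fit leaves RSD 2 and RSD 8, of GC trends -0.66 and -0.79, as the only RSD libraries of numbers 1 to 8. Without CON 18 and RSD 8 the interaction of Ifih1 was -0.28 (limma adjusted p = 0.245). Once each library's trend with GC content and length was removed, the RSD minus CON difference was 0.00 for Ddx58 and -0.09 for Ifih1. In those corrected values RSD 8 stood at 735 normalized reads of Ddx58 and 714 of Ifih1, inside the range of the controls (614 to 777 and 663 to 845). Both are transcripts of low GC content, 46.6% and 42.8%, where the median over genes was 49.2%. The part of GC content in their values in RSD 8, and in the change of sign between number ranges, was not tested.

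Dhx58, the LGP2 gene, had the fewest reads of the 9 and, with all 13 libraries, the largest log2 difference. Without CON 18 it stood at -0.235, and Rnf166 (-0.262) and Mavs (-0.243) were larger in size. Dhx58 ran from 149 over 177 to 214 normalized reads in RSD and from 163 over 222 to 336 in CON. CON 18 was the highest of all libraries, and CON 19, the lowest control, lay among the RSD values. The log2 difference was -0.35 ± 0.14, -0.24 without CON 18, and -0.09 within sample numbers 10 to 19 without CON 18. The part of the macrophage markers of CON 18 in this difference was not tested. Dhx58 shares 141 exon bases with Dhx58os on the opposite strand, and use of strand is not given in the sources used here, so their reads cannot be told apart there.

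Mavs, the adaptor (chromosome 2, 131234063 to 131248025, mm10, plus strand), was lower in every RSD library than in every CON library, which is the property it was chosen for. In RSD it stood at 494, 567.6, 438, 558, 604, 582 and 562.4 normalized reads in libraries 2, 7, 8, 10, 11, 12 and 13. In CON it stood at 620.1, 629, 648, 613, 713 and 694 in libraries 1, 4, 5, 17, 18 and 19. The group means were 544 ± 57.3 (SD, n = 7) and 653 ± 41.5 (SD, n = 6), so that RSD was at 83.3% of CON, and the log2 difference was -0.27 ± 0.08. Of the 12496 genes kept, 4 (0.032%) had every RSD library below every CON library, and 4 (0.032%) had every RSD library above every CON library.

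The separation of Mavs was narrow. The highest stressed library, RSD 11, had 593 reads of it, a normalized 604 with a 95% Poisson interval of 556 to 654. The lowest control, CON 17, had 638 reads, a normalized 613 with an interval of 567 to 663. These intervals, which cover counting error only, overlap. The same property just failed for Rnf166, where the highest RSD library was at 459 and the lowest CON library at 453.

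The size of the difference of Mavs ranged from -0.35 to -0.18 over the 29 alternatives run. Its sign, and the order of the groups in any subset of these libraries, follow from how Mavs was chosen and are no sign of stability. The difference was -0.19 without CON 18 and RSD 8, the highest and lowest libraries. Within sample numbers 1 to 8 it was -0.35, with RSD at 438 to 567.6 and CON at 620.1 to 648. Within numbers 10 to 19 it was -0.22, with RSD at 558 to 604 and CON at 613 to 713. With other scaling factors the highest RSD and the lowest CON library stood at 588 and 603 (TMM) and at 596.9 and 597.1 (upper quartile).

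Mavs varied with the GC trend of the libraries only with RSD 2 and RSD 8 included. Its transcript has 53.9% GC, and its lowest values were in RSD 8 and RSD 2, the libraries of strongest trend. Over 13 libraries the level and the trend had a Pearson r of 0.67, and over the 11 without RSD 2 and RSD 8 an r of -0.13, given as a description. The relation was not particular to Mavs. It was stronger over 13 libraries for Tmem173 (0.78), Ifih1 (-0.76), Ddx58 (-0.74), Irf3 (0.72) and Tbk1 (-0.70). Over those 11 libraries these genes had 0.43, -0.51, -0.39, 0.07 and -0.40. Dhx58 (0.34), Rnf166 (0.24) and Traf3 (-0.06) had a weaker relation over 13 libraries. After removal of GC and length trends Mavs was at 519.8 to 577 in RSD and 592 to 738 in CON, a log2 difference of -0.22. RSD 2 and RSD 8 then stood at 519.8 and 521, and the next lowest was RSD 10 at 549.

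**Figure D2:**
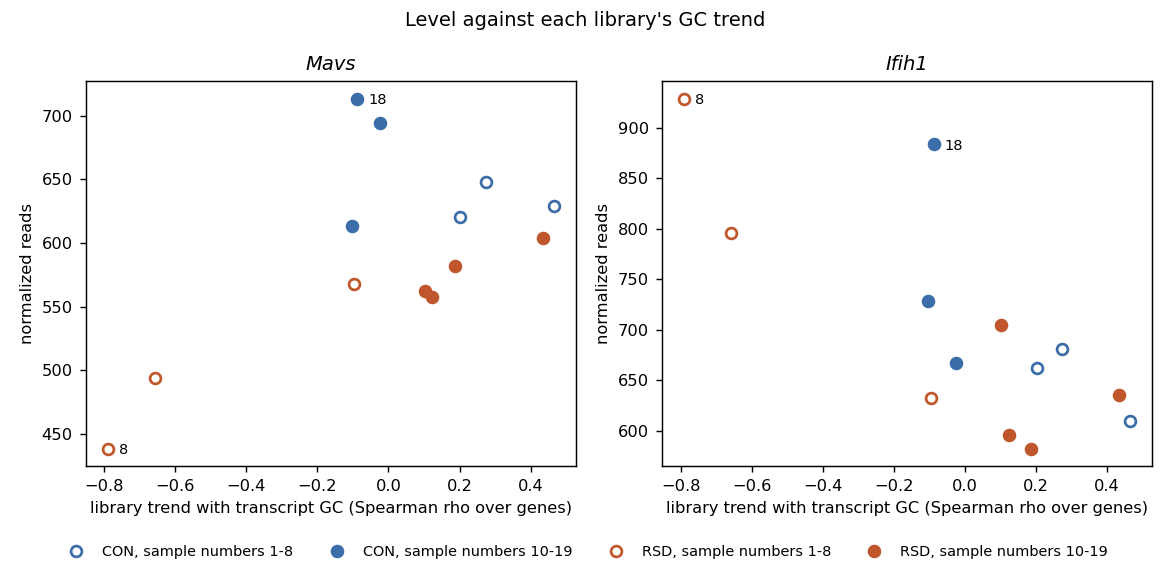
Normalized reads (y axis, not from 0) of Mavs and Ifih1 against each library's trend with transcript GC content (x axis, Spearman rho over 10172 genes; points as in the plot by library). RSD 2 and RSD 8, at -0.66 and -0.79, are lowest for Mavs and among the highest for Ifih1.

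Genes whose pattern was most like that of Mavs were sought among 8857 genes with a mean of at least 100 normalized reads, after each group's mean was subtracted. Zc3h3 and Dgat1 (r = 0.96 each), Fam53b, Trrap and Ankrd52 (0.95 each) had the highest Pearson r over 13 libraries, and 0.85 to 0.94 over the 11 without CON 18 and RSD 8. Mctp1 (-0.96), 1700049G17Rik (-0.95) and Aktip (-0.94) had the lowest. GC content was 53.6% to 58.6% in the first set and 39.3% to 48.3% in the second. The part of the GC trend in this likeness was not tested. Among the 9 genes, Irf3 (0.82) and Tmem173 (0.70) had the highest r with Mavs, which was 0.62 and 0.65 over those 11 libraries, and Rnf166 had 0.18 and -0.23. Mavs and Rnf166, both at -0.27 between the groups, thus had a weak correlation within them.

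Rnf166 encodes a ubiquitin ligase that modifies TRAF proteins after RNA virus infection (chromosome 8, 122466147 to 122476064, minus strand). It ran from 350.1 over 384 to 459 normalized reads in RSD and from 453 over 475 to 483 in CON. Of the RSD libraries, 6 of 7 lay below every control, and RSD 7 lay above CON 1 and CON 19. The controls were tight, with an SD of 12.1 around a mean of 470.5, against 37.3 around 393 in RSD. The log2 difference was -0.27 ± 0.07. The gene lies within Gm20388 on the opposite strand, with 0 shared exon bases.

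The groups of Rnf166 separated within the later sample numbers and overlapped within the earlier ones. Rnf166 was known from this comparison, so a separation in a subset of the same libraries is no sign of stability. Within numbers 10 to 19, RSD was at 350.1 to 395 and CON at 458 to 476, a log2 difference of -0.32. Within numbers 1 to 8, RSD was at 359.7 to 459 and CON at 453 to 483 (-0.20), and without RSD 8 this was -0.10. The interaction of group and number range was -0.12 ± 0.14 (limma adjusted p = 0.625) and did not pass. With GC and length trends removed the difference was -0.17 and the RSD values (341 to 502) spanned those of the controls (419 to 499.7).

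Traf3, the adaptor ligase that links MAVS to TBK1, overlapped between the groups. It ran from 687 over 742 to 796 normalized reads in RSD and from 704 over 758 to 980.4 in CON. CON 18 was the highest library and the next control was CON 17 at 778. The log2 difference was -0.08 ± 0.08, and -0.01 without CON 18.

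Tbk1, the kinase on which the MAVS and STING branches converge, stood in the opposite direction to Mavs. It ran from 1359 over 1468 to 1726 normalized reads in RSD and from 1183 over 1266 to 1388 in CON. Of the RSD libraries, 5 of 7 lay above every control, and RSD 13 and RSD 11 (1367) lay below CON 17 alone. RSD was at 116.1% of CON, a log2 difference of 0.21 ± 0.07.

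In all 29 alternatives, which are refits of the same libraries, the difference of Tbk1 was positive, from 0.07 to 0.35. The highest value came from sample numbers 1 to 8 and the lowest from numbers 10 to 19 without CON 18, where CON 17 and CON 19 are the only controls. Within numbers 10 to 19 as a whole it was 0.10, and with GC and length trends removed 0.17. After that removal RSD (1391 to 1547) still met CON (1221 to 1393) at the edge.

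Irf3, the transcription factor that TBK1 activates, spread widely in RSD and little in CON before GC and length trends were removed. It ran from 313 over 460.02 to 525 normalized reads in RSD, with an SD of 71.6, and from 439 over 457 to 469.9 in CON, with an SD of 13.1. RSD 8, RSD 2 (409) and RSD 13 (425) lay below every control, and RSD 10, 11 and 12 (490.2 to 525) lay above every control. The log2 difference was -0.05 ± 0.10. It was -0.20 within sample numbers 1 to 8, 0.06 within numbers 10 to 19 and 0.04 with GC and length trends removed. In those corrected values RSD ran from 415 to 507, with RSD 8 at 421, and CON from 405 to 471. The part of the GC trend in the unequal spread was not tested. Irf3 shares 88 exon bases with Bcl2l12 on the opposite strand.

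Tmem173, the STING gene, had the most reads of the 9. It ran from 2632 over 3613 to 3882 normalized reads in RSD and from 3383 over 3717 to 4004 in CON. RSD 2, 7 and 8 were the 3 lowest libraries, and RSD 10 to 13 (3613 to 3882) lay within the range of the controls. The log2 difference was -0.12 ± 0.08, and -0.05 without RSD 8, with -0.29 within sample numbers 1 to 8 (-0.18 without RSD 8) and 0.01 within numbers 10 to 19. The interaction of group and number range was 0.30 ± 0.14 (limma adjusted p = 0.217) and did not pass.

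**Figure D3:**
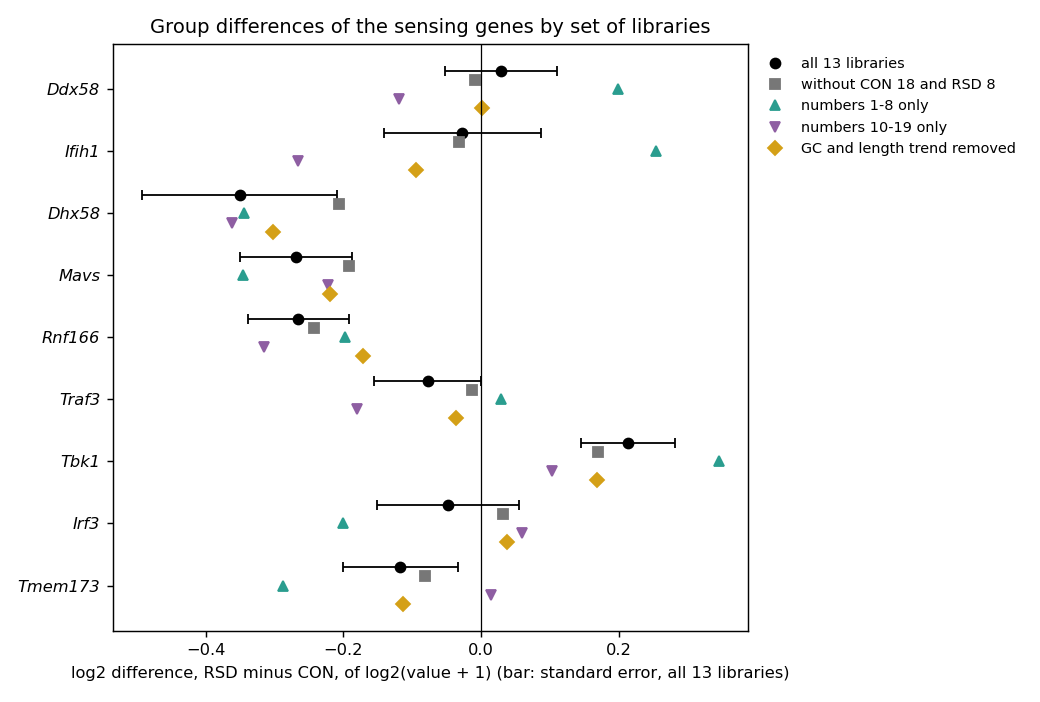
Log2 difference, RSD minus CON, of log2(value + 1) (x axis) for each gene with all 13 libraries (black, bar of 1 SE), without CON 18 and RSD 8, within each range of sample numbers, and with GC and length trends removed. Mavs, Rnf166 and Dhx58 lie below 0 and Tbk1 above 0 in every set shown. The sets reuse the same libraries, so this is no sign of stability. Ddx58, Ifih1, Irf3, Traf3 and Tmem173 have points on both sides.

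Over all genes measured, 0 of 12496 genes (0.0%) passed limma at an adjusted p of 0.05 for RSD against CON, so 0 of the 9 did. edgeR called 0 genes, with 601 at an unadjusted p below 0.05, limma had 500 (4.0%) of which 247 (1.98%) were lower and 253 (2.02%) higher in RSD, and DESeq2 called 2 genes (0.016%), neither of them among the 9. Nothing about the 9 is read from these counts, since the comparison chose them. Of the 9 differences 7 were negative, those of the chosen Mavs and Rnf166 among them, so the count is a description only. The median of the 9 was -0.08 where the median of all genes was 0.01, and it was -0.03 without CON 18 and RSD 8. Within sample numbers 1 to 8 there were 5 negative, and within numbers 10 to 19 there were 6.

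Sample numbers 10 to 19 against 1 to 8, with group as a covariate, were a contrast the choice of genes did not compare. Choosing Mavs for groups that do not overlap does bear on its spread within groups, which this fit uses. The p of Mavs in this contrast is therefore given as a description. limma called 86 of 12496 genes (0.688%) and 0 of the 9, with 1604 (12.8%) at an unadjusted p below 0.05, and edgeR called 82. Leaving out 1 library gave 33 to 172 calls, with 172 without CON 18, and still 0 of the 9. The largest differences among the 9 were those of Irf3 (0.19 ± 0.09, limma adjusted p = 0.414), Mavs (0.15 ± 0.07, limma adjusted p = 0.397) and Tmem173 (0.14 ± 0.08, limma adjusted p = 0.504), each higher in the later numbers. Without RSD 8 they were 0.10 for Irf3, 0.10 for Mavs and 0.07 for Tmem173, and with GC and length trends removed 0.11, 0.12 and 0.14. Neutrophil markers, of which 6 of 7 are in the table, summed to 155 to 1001 normalized reads in numbers 1 to 8 and to 11.6 to 135 in numbers 10 to 19. Their part in these differences was not tested.

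The rest of the pathway was read from 7 lists, which also hold the 9 genes, and in which 0 genes passed limma in either direction. The unadjusted limma p was below 0.05 for at most 5 genes in any list, where 4.0% of all genes had such a p. Those 5 were among the 23 adaptors, ligases and kinases, and 3 of them were Mavs, Rnf166 and Tbk1, so that chosen genes carry the count. Of 13 RNA sensors and cofactors 10 were positive, with a median of 0.04. Without CON 18 and RSD 8 there were 7 positive, with a median of 0.01, and within sample numbers 10 to 19 there were 5, with a median of -0.03. The RNA helicase genes Dhx9 (0.17 ± 0.09) and Dhx15 (0.13 ± 0.07) stood at 0.10 and 0.08 without CON 18 and RSD 8. Of 18 DNA sensors and STING partners 12 were positive, with a median of 0.05. Mb21d1, which encodes the DNA sensor cGAS, ran from 487 over 589 to 779 normalized reads in RSD and from 418 over 521 to 578 in CON (0.23 ± 0.11, limma adjusted p = 0.821, and 0.11 without CON 18 and RSD 8). Within sample numbers 1 to 8 that list's median was 0.33 and within numbers 10 to 19 it was -0.08, where those of all genes were -0.01 and 0.01. Numbers 1 to 8 hold RSD 2 and RSD 8, of GC trends -0.66 and -0.79. There 22.2% of all genes had an unadjusted limma p below 0.05. The part of the GC trend in the 0.33 was not tested.

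Adaptors, ligases and kinases were split, with 10 of 23 positive and a median of -0.02. Chuk, an IkB kinase gene, ran from 968 over 1045 to 1605 normalized reads in RSD and from 839 over 927 to 1072 in CON (0.26 ± 0.11, limma adjusted p = 0.821, and 0.17 without CON 18 and RSD 8). Sharpin and Rbck1, subunits of the linear ubiquitin chain ligase, stood at -0.29 ± 0.12 and -0.23 ± 0.15 (limma adjusted p = 0.821 each), and both were lowest in RSD 8 (253 and 371 normalized reads). Without CON 18 and RSD 8 they stood at -0.19 and -0.07. Among 13 transcription factors 4 were positive (median -0.07, and -0.01 without CON 18), with Stat2, a subunit of the interferon-activated complex, at -0.21 ± 0.12 and, without CON 18, at -0.09. Among 26 negative regulators 14 were positive (median 0.01), with Atg5, an autophagy gene, at 0.15 ± 0.07.

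The values of the pathway's end products rested largely on CON 18. Interferon beta (Ifnb1) is not among the genes of the table, and 14 interferon-induced targets were tested, of which 4 were positive with a median of -0.19. Without CON 18 there were 8 positive, with a median of 0.04. Rtp4, an interferon-induced gene, was at 319 normalized reads in CON 18, at 75.4 to 139 in the other controls and at 67.2 to 107 in RSD (-0.47 ± 0.27, and -0.20 without CON 18). Of 16 genes that clear nucleic acids 4 were positive, with a median of -0.13, which was -0.06 without CON 18 and -0.01, with 7 positive, without CON 18 and RSD 8. Trex1, a DNA exonuclease gene, was at 504 in CON 18, at 239.9 to 301 in the other controls and at 143 to 275 in RSD (-0.42 ± 0.18, limma adjusted p = 0.821). Its lowest value was in RSD 8, and the difference was -0.26 without CON 18 and -0.16 without both. The sum of the macrophage markers is 148873 in that library and at most 3007 elsewhere, and its part in these values was not tested.

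**Figure D4:**
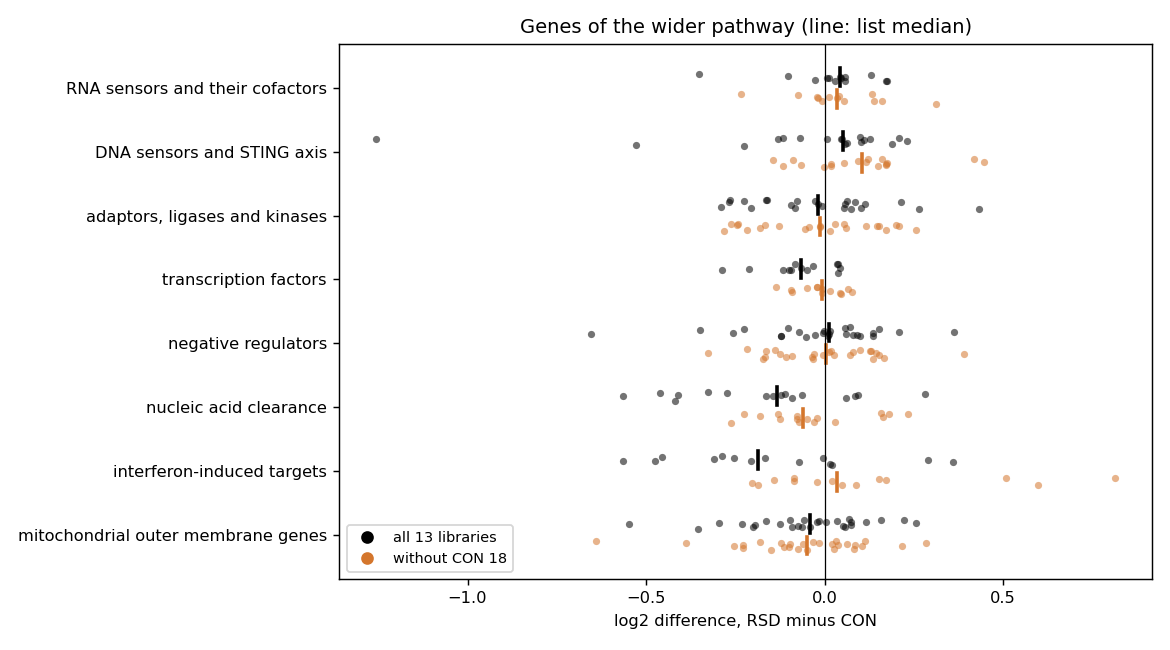
Log2 difference, RSD minus CON (x axis), of each tested gene in 8 lists, with all 13 libraries (black) and without CON 18 (orange), and the list median as a line. The median of the interferon-induced targets is -0.19 with CON 18 and 0.04 without it, while that of the adaptors, ligases and kinases is -0.02 and -0.01.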

How the data were processed

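RNA of 13 libraries of sorted microglia was sequenced after ribosomal depletion (Ovation SoLo with AnyDeplete, per the labels' protocols). Per the submitters' processing notes, the authors aligned reads with STAR to mm10 and normalized them with DESeq2; their versions, the read counter, the annotation and strandedness were not given in the sources used here. Deposited values are a signal, read counts divided by 1 size factor per library. This was read from the values, of which 100% were whole multiples of the library's smallest step within 0.01 reads, and reads were recovered from it.

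The reported fit is limma (3.58.1, R 4.3.3) on log2(value + 1) with trend and robust variance, two-sided, on 12496 genes kept by filterByExpr (minimum count 10, total 15), with Benjamini-Hochberg adjustment over all of them and a threshold of 0.05. It was tested on simulated data. edgeR (4.0.16) and DESeq2 (1.42.0) were run on recovered reads. Other alternatives were pseudocounts, filters, scaling factors, voom weights, left-out libraries, number ranges and a loess removal of GC and length trends (span 0.5). Positions and exon lengths are from GENCODE M21 (GRCm38, also called mm10), in which 13790 symbols matched directly, 558 by synonym and 170 not at all.

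The members and lists were chosen with earlier results of these data known, the lists from textbook knowledge. Named were all 9 genes, in each list genes among the 3 of smallest limma p and the 1 of highest mean, and genes of highest and lowest r with Mavs.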

Additional observations from a re-analysis of the deposited data

Results flagged for a closer look

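Of 18 checks (9 genes in each of 2 groups), 1 library lay far from the rest of its group. Traf3 was at 980.4 normalized reads in CON 18 and at 704 to 778 in the other 5 controls. Chance gives such a gap in about 5% of groups.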

How the results depend on the processing

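The count of genes called for RSD against CON was 0 in 26 of 29 alternatives. It was 2 (0.016%) in DESeq2, 11 (0.086%) within sample numbers 10 to 19 without CON 18 and 78 (0.614%) within numbers 1 to 8 without RSD 8. The last 2 were chosen after seeing the data. None of the 9 genes was called in any, and nothing about them is read from this, since the comparison chose them. The differences of Mavs, Dhx58, Irf3 and Traf3 moved by less than 1 SD in all 29. The SD here is that of a gene's log2 values between libraries within groups. For Dhx58 it was 0.27, and the difference went from -0.35 to as little as -0.09, so a move below 1 SD is no sign of stability. Those of Rnf166, Dhx58 and Tbk1 kept their sign. The alternatives are refits of the same libraries, and Rnf166 was known from this comparison, so a kept sign is no sign of stability. The sign changed in 6 of 29 for Ddx58 and Irf3, 5 for Ifih1, 3 for Traf3 and 1 for Tmem173. Ddx58 and Tbk1 moved by more than 1 SD in 3 alternatives each, Ifih1 in 2, Tmem173 in 1 and Rnf166 in 1, to -0.10.

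Leaving out 1 library gave 33 to 172 calls for sample numbers 10 to 19 against 1 to 8, where all 13 gave 86. The count was 172 without CON 18, 33 without RSD 7 or CON 19, and 36 to 57 without CON 1, 4 or 5 or RSD 8, 11, 12 or 13. It was 246 without CON 18 and RSD 8 together. For the interaction leaving out 1 library gave 0 to 1457, with 1457 without RSD 7, 3 without CON 1 and 0 without any of the other 11. It was 463 without CON 18 and RSD 8. The cause was not tested. Medians of lists in subsets of libraries were also chosen after seeing the data. No paired analysis was possible because the groups share no sample number. At this depth the counting interval of Mavs in 1 library is wider than the gap between its groups.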

Other observations

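Genes of the mitochondrial outer membrane, where MAVS is anchored, were read as a further list. Of 27 tested, 11 were positive and 16 negative, with a median log2 difference of -0.04, and 0 passed limma. Fis1, a mitochondrial fission gene, ran from 118 over 161 to 176 normalized reads in RSD and from 169 over 194 to 270.03 in CON, a log2 difference of -0.36 ± 0.12 (limma adjusted p = 0.821). RSD 8 held its lowest value, and the difference was -0.32 without CON 18 and RSD 8. Mcl1, a survival gene of the BCL2 family, ran from 5909 over 7602 to 8112 in RSD and from 5770 over 6216 to 7059 in CON (0.22 ± 0.08, limma adjusted p = 0.821), and was 0.20 without CON 18 and RSD 8. Within sample numbers 1 to 8 the list's median was -0.13, and within numbers 10 to 19 it was 0.07, where those of all genes were -0.01 and 0.01.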
